A study of Mus musculus with 20 samples.

Results

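The sperm of males exposed to di-(2-ethylhexyl) phthalate (DEHP) before birth was compared between the inbred mouse strains C57BL/6J and FVB/N. The comparison takes the 10 DEHP libraries, 5 per strain, out of the 20 libraries of the series. They were chosen by their labels, since all 10 carry the same treatment. Their DNA also went through library preparation and sequencing as a single batch, and the control DNA formed another batch. Mothers were dosed by mouth with DEHP in corn oil, at 300 mg/kg/day, between gestation days 9 and 19. Sperm of their sons was collected from the epididymis and vas deferens at 8 weeks of age. The other 10 libraries, 5 C57BL/6J controls and 5 FVB/N controls, came from sons of mothers given corn oil alone. They were used as a second measure, in other males, of the same strain difference. The labels do not say which sons shared a mother. The p-values set a difference against the spread between libraries. In DEHP that spread came from a trend over all promoters by level, and a promoter's own SD had no weight.

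DNA methylation in the germ line is erased and rebuilt in the fetal testis, in the window in which these mothers were treated, and mature sperm carries methylation over most of its genome with the exception of CG-rich promoters. In MBD-sequencing, fragments that hold methylated CG sites are captured by a methyl-binding domain and sequenced, so the reads over a promoter depend on how many of its CG sites are methylated and on how many CG sites it has. C57BL/6J is the strain whose genome was sequenced as the mouse reference, and FVB/N is an albino strain with pups that are born in large litters and eggs that are easy to inject. Reads of both strains were aligned onto mm10, the C57BL/6J reference. The deposited table covers 22480 promoter probes of 2200 bp with a median of 45 CG sites, and gives for each group the mean and the standard deviation of the reads that the authors normalized. Values of single libraries and the depth of each library are unknown here. The sum of the means was 153283 for C57BL/6J DEHP and 150346 for FVB/N DEHP, and the means were scaled to a common sum before any comparison. Every level given below is in normalized reads on that common scale, with the SD over 5 libraries.

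The label of sperm was checked on imprinted genes, which sperm carries methylated or unmethylated according to the parent of origin of the mark. H19, an imprinted gene methylated on the paternal copy, stood at 17.8 ± 6.93 in C57BL/6J and 17.7 ± 3.43 in FVB/N. Rasgrf1, whose paternal methylation lies outside the promoter probe, stood at 2.97 ± 0.891 and 2.63 ± 2.32. Among the 10 promoters of maternally methylated genes, group means ran from 1.49 to 14.7. Mest was at 2.28 ± 0.693 and 2.63 ± 1.41, whereas 3 of the 10 were above the median of all promoters in both strains (5.25 and 4.95). Nnat, at 9.41 ± 3.76 and 14.7 ± 2.42, and Peg3, at 6.04 and 8.18, were among these 3, so the levels at these probes only partly separate paternal from maternal marks. None of these 12 promoters was called different between the strains, where 0.894% of all promoters were.

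The regions printed here are the 300 bases with the most CG sites upstream of the start of 6 genes, outside every annotated exon, read from GRCm38.p6 (mm10) on the strand of the gene, with CG sites in capitals. They show the range of sequence behind the strain differences, from a CG-rich promoter with 64 variants (Zfp637) and a promoter that shares the smallest adjusted p (AA388235) to a CG-poor promoter with 106 variants (Mrgprb4), promoters without any listed variant (Vmn1r1 and Alad) and a receptor promoter with more reads in FVB/N (Mrgpra3).
Zfp637, chr6:117840874-117841173 (+ strand): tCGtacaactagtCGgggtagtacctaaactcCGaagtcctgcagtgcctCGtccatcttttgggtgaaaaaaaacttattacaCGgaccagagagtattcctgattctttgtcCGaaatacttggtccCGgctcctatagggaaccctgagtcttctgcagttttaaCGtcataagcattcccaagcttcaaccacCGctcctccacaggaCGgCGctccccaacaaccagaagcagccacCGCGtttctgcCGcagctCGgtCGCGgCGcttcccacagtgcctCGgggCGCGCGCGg
AA388235, chr17:33981188-33981487 (+ strand): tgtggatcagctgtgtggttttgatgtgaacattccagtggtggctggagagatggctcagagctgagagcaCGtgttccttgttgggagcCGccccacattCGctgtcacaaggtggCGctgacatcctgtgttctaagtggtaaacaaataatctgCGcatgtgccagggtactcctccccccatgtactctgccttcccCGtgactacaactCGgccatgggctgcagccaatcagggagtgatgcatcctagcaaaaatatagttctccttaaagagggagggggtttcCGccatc
Mrgprb4, chr7:48199691-48199990 (- strand): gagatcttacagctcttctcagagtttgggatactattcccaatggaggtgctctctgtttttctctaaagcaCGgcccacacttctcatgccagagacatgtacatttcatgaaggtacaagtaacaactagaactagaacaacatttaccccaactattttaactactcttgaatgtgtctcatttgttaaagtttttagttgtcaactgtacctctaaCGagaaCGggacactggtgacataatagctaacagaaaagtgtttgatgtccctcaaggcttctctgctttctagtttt
Vmn1r1, chr1:182159751-182160050 (- strand): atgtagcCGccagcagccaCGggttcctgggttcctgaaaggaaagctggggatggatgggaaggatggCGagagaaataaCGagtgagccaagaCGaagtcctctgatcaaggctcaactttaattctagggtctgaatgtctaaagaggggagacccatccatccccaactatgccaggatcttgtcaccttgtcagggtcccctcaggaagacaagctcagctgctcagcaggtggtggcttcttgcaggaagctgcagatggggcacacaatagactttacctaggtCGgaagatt
Alad, chr4:62520079-62520378 (- strand): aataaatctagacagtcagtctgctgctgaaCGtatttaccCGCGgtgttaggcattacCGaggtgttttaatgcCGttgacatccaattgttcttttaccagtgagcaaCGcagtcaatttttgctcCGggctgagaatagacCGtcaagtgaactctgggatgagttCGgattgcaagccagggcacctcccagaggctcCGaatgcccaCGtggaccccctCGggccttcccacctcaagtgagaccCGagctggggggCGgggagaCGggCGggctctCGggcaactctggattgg
Mrgpra3, chr7:47602840-47603139 (- strand): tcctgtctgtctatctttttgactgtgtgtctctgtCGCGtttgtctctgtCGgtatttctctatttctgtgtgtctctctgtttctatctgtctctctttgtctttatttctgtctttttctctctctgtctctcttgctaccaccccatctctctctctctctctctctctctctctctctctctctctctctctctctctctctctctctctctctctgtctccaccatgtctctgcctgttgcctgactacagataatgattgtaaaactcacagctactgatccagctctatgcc
These windows hold 23 CG sites in Zfp637, 17 in Alad, 8 in AA388235, 6 in Vmn1r1 and 3 each in Mrgprb4 and Mrgpra3. The sequence is the C57BL/6J reference, and the bases of FVB/N were not analysed here.

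The methylation signal was higher in C57BL/6J at 184 promoters and higher in FVB/N at 17 promoters, at an adjusted p under 0.05 (limma's moderated test on the group means and SDs, adjusted over all promoters). These are 0.819% and 0.0756% of the 22480 promoters, or 0.894% in all, and 1842 promoters (8.19%) had an unadjusted p under 0.05. Probes can overlap, and the calls cover 180 and 16 separate regions. In the C57BL/6J direction, 28 promoters were listed at 0 in FVB/N. Over the other 156, the log2 ratio (C57BL/6J over FVB/N, pseudocount 1) ranged from 1.03 to 2.88 with a median of 1.63. In the FVB/N direction, it ranged from -1.05 to -2.18 with a median of -1.36, and 0 promoters were listed at 0 in C57BL/6J. Over all promoters the median was 0.02.

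**Figure D1:**
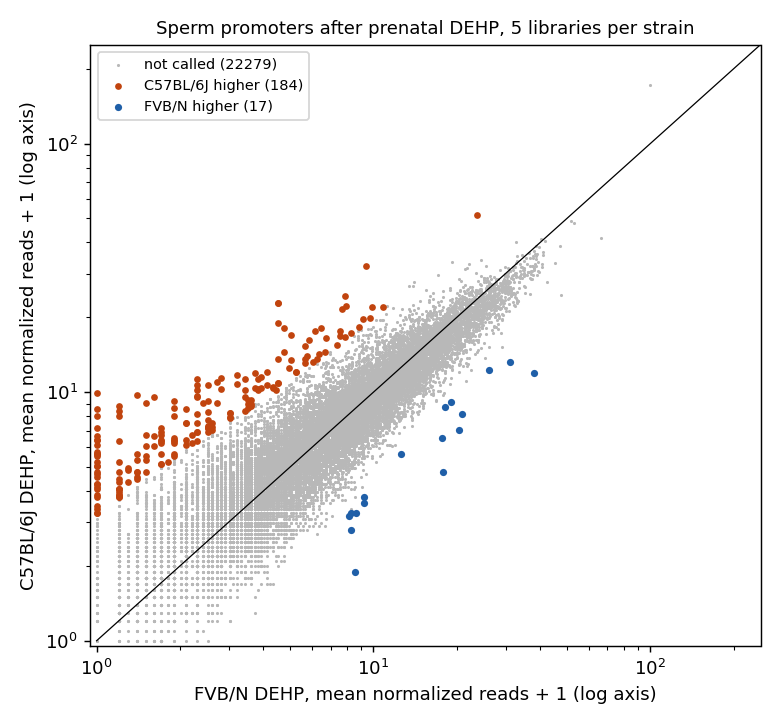
Mean normalized reads plus 1 of 22480 sperm promoters after DEHP, with FVB/N on the x axis and C57BL/6J on the y axis, both logarithmic; the line marks equal levels. The 184 promoters called higher in C57BL/6J reach down to FVB/N means of 0, while all 17 promoters called higher in FVB/N have C57BL/6J means above 0.

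A stricter count used each promoter's own SD. A set of 5 libraries with a given SD cannot hold a library beyond a fixed multiple of that SD from the mean, so where the ranges of that width stay apart, every library of the higher strain lies above every library of the lower strain. This held at 66 promoters with C57BL/6J higher (0.294% of all) and at 8 with FVB/N higher (0.0356%). Of the called promoters, 52 of 184 and 4 of 17 were separated in this way. The bound misses promoters whose libraries are in fact separated, so these counts are lower limits.

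The 10 promoters with the largest difference over the larger SD in the C57BL/6J direction, among those with at least 5 normalized reads in that strain, were separated, which follows from the ranking. Zfp637, which codes for a zinc finger protein, stood at 5.55 ± 0.693 in C57BL/6J and, in FVB/N, at 0.909 ± 0.707 (log2 ratio 1.78, adjusted p = 0.00864). Its probe lies on chromosome 6 from 117839242 to 117841441 and holds 85 CG sites and 64 variants between the strains. Every C57BL/6J library was above every FVB/N library at this promoter. Cilp, the gene of a cartilage matrix protein, stood at 15.6 ± 1.58 and 6.87 ± 1.51 (log2 ratio 1.08, adjusted p = 0.0404), a smaller ratio at a higher level. Zfp964, another zinc finger gene, stood at 7.43 ± 1.39 and 0.202 ± 0.404 (adjusted p = 1.27e-05), so that FVB/N was near the lower end of the scale. Fam166b stood at 16.5 ± 2.08 and 6.56 ± 2.02 with 38 variants in its promoter.

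The remaining 6 of these 10 include genes of innate immunity and of saliva. Pydc3 and AI607873 belong to the family of interferon-inducible genes with a pyrin domain on chromosome 1. Pydc3 stood at 5.15 ± 1.09 in C57BL/6J and was listed at 0 in FVB/N, and AI607873 stood at 8.02 ± 1.49 and 1.72 ± 1.21. Nlrp1a, a sensor that assembles the inflammasome, stood at 6.14 ± 1.39 in C57BL/6J and was listed at 0 in FVB/N. Dcpp1 and Dcpp2, salivary protein genes, are listed with the same probe and therefore the same values, 6.14 ± 0.99 and 1.51 ± 0.808. LOC102634753, with 8 variants, stood at 5.05 ± 0.99 and 0.606 ± 0.909.

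**Figure D2:**
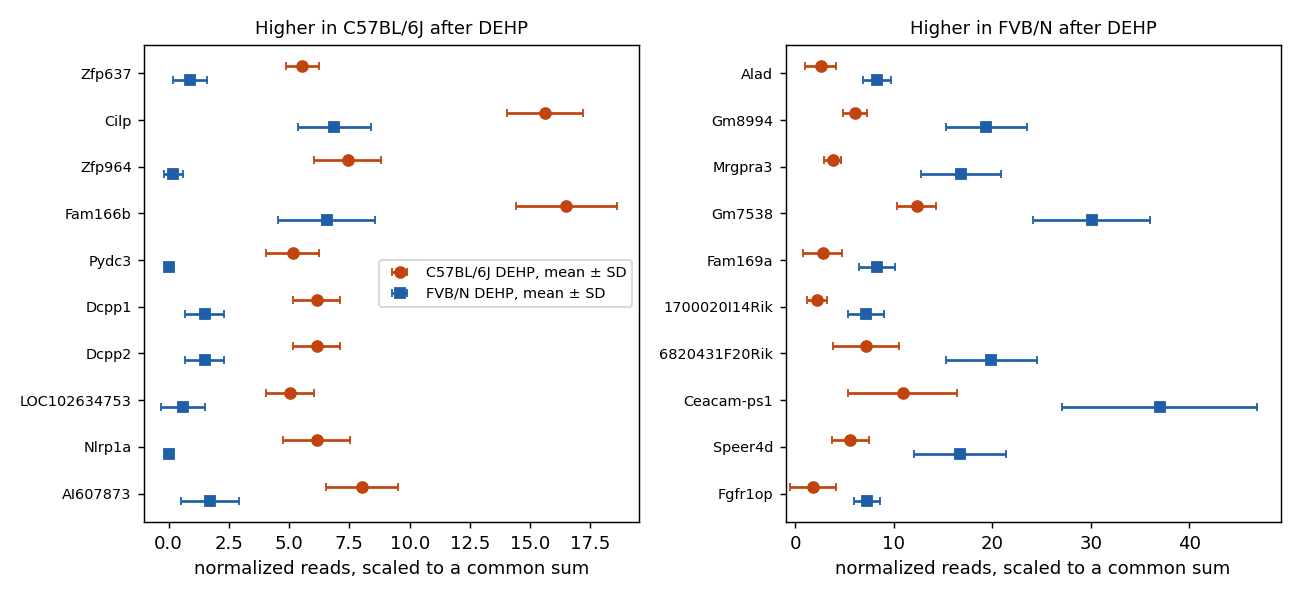
Mean normalized reads (points) with SD (bars) over 5 libraries per strain, scaled to a common sum, for the 10 top-ranked promoters in each direction (left, C57BL/6J higher; right, FVB/N higher). Ranked by the difference over the larger SD, the 10 promoters on the left run from 6.56 (Zfp637) to 4.24 (AI607873), and Pydc3 and Nlrp1a are listed at 0 in FVB/N.

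The smallest adjusted p, 9.84e-08, was shared by AA388235 and Gm15698. AA388235, on chromosome 17 from 33979492 to 33981691, stood at 21.8 ± 5.15 in C57BL/6J and 3.53 ± 1.11 in FVB/N. H2-K2, a class I histocompatibility gene with an overlapping probe, stood at 17.1 ± 3.37 and 3.74 ± 1.31. The predicted gene Gm15698 stood at 21.9 ± 8.72 and 3.53 ± 1.01. Both AA388235 and Gm15698 were separated, in spite of the wide spread of C57BL/6J at Gm15698. The highest level among the called promoters was that of Trpm8, the gene of a cold-sensing ion channel, at 50.5 ± 13.1 and 22.7 ± 3.74 (adjusted p = 0.0246), and it was not shown to be separated.

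FVB/N was higher at 17 promoters, and those of Alad, Gm8994, Mrgpra3 and Gm7538 were separated. Alad, on chromosome 4 from 62519864 to 62522063, codes for delta-aminolevulinate dehydratase, an enzyme of heme synthesis. It stood at 2.58 ± 1.58 in C57BL/6J and 8.28 ± 1.41 in FVB/N (log2 ratio -1.38, adjusted p = 0.0246). Mrgpra3, an itch receptor of sensory neurons, stood at 3.76 ± 0.891 and 16.8 ± 4.04 (log2 ratio -1.90, adjusted p = 1.62e-05). The predicted gene Gm7538 stood at 12.3 ± 1.98 and 30.1 ± 5.96, and Gm8994, with 67.1% of its probe masked as repeats, at 6.04 ± 1.19 and 19.4 ± 4.14.

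The largest difference in reads in the FVB/N direction was that of the pseudogene Ceacam-ps1, at 10.9 ± 5.55 in C57BL/6J and 37 ± 9.9 in FVB/N. Speer4d, of a multicopy family expressed in the testis, stood at 5.55 ± 1.88 and 16.7 ± 4.64, and Fgfr1op, which codes for a centrosomal protein, at 1.78 ± 2.38 and 7.27 ± 1.31. Separation was not shown at these 3 promoters. Fam169a, 1700020I14Rik and 6820431F20Rik complete the 10 highest-ranked promoters of this direction. The others called were Magoh, of the exon junction complex, the guidance gene Sema5b, the class I histocompatibility gene H2-D1, Mir6385, Tmem125, and the overlapping probes of Dusp13, a phosphatase gene, and Samd8, of sphingolipid synthesis.

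The table lists for each promoter how many sequence variants separate the strains. It counted 0 variants at 12124 promoters (53.9%) and up to 108 at others. The share of promoters called higher in C57BL/6J was 0.148% with 0 variants (18 promoters, 95% Wilson interval 0.0939 to 0.235), 0.181% with 1 to 2, 0.39% with 3 to 5, and 0.642% with 6 to 10. It was 2% with 11 to 20 variants, 4.51% with 21 to 30, and 15.1% (73 of 483, interval 12.2 to 18.6) with 31 or more. Promoters with 11 or more variants were 12.7% of all and 75.5% (139) of those called higher in C57BL/6J. In the FVB/N direction the shares were 0.033% with 0 variants and 0.207% (1 promoter, Gm8994) with 31 or more, and 5 of the 17 promoters had 11 or more variants. These intervals cover counting error only, and promoters share libraries and are not independent.

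**Figure D3:**
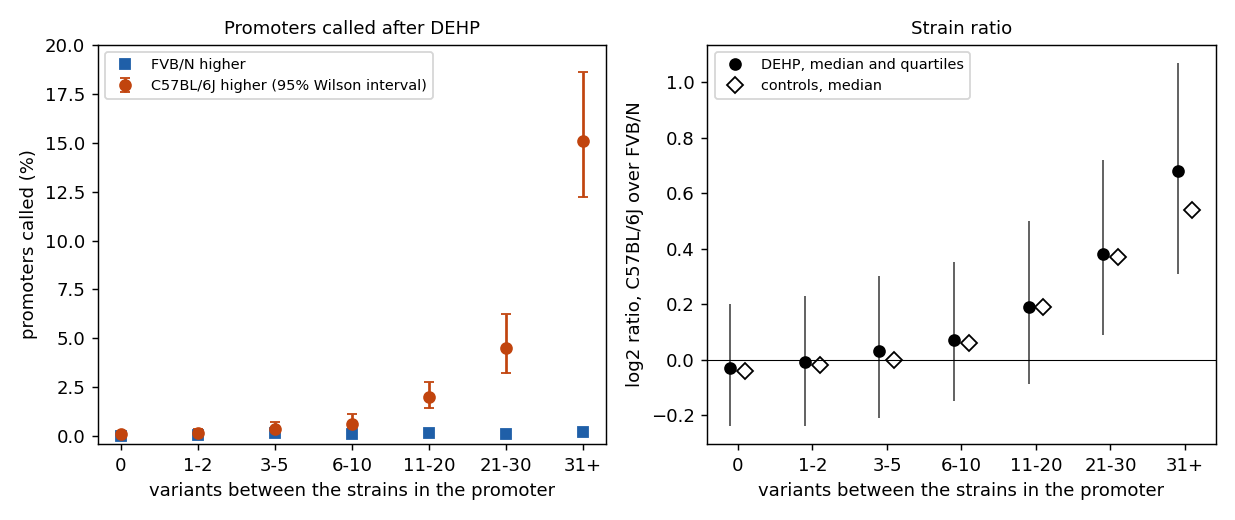
Left, percentage of promoters called after DEHP by number of strain variants in the promoter (circles, C57BL/6J higher, with 95% Wilson intervals; squares, FVB/N higher). Right, log2 ratio of C57BL/6J over FVB/N by number of variants, as median and quartiles in DEHP (filled circles) and median in controls (diamonds); both medians lie near 0 without variants and reach 0.68 and 0.54 with 31 or more.

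The shift was not limited to called promoters. The median log2 ratio was -0.03 over promoters with 0 variants, 0.03 with 3 to 5, 0.19 with 11 to 20, 0.38 with 21 to 30, and 0.68 with 31 or more, where 89.6% of promoters had a ratio above 0 against 51.7% of all promoters. At 31 or more variants the median level was 5.94 normalized reads in C57BL/6J and 3.33 in FVB/N, while with 0 variants it was 5.15 in both strains. The control libraries, from other males, gave medians of -0.04 with 0 variants and 0.54 with 31 or more. Spearman's rho between the number of variants and the log2 ratio over the 22480 promoters was 0.21 in DEHP and 0.17 in controls, given as a description. The ratio thus moved with the number of variants in both treatments. The part of alignment onto the C57BL/6J genome in this was not tested.

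Variants that alter a gene's product, the functional variants of the table, followed the same order. The share called higher in C57BL/6J was 0.42% in genes with 0 functional variants and 5.16% in genes with 6 or more. Genes with more functional variants also had more promoter variants, with a median of 0 and 13 in these classes. Among promoters with over 20 promoter variants, the shares were 8.11% with 0 functional variants, 7.57% with 1 to 2 and 10.2% with 3 or more, a narrower range without a steady rise. Among promoters with 0 promoter variants they were 0.115%, 0.436% and 1.45%, the last from 2 of 138 promoters.

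The number of CG sites ordered the promoters much less. C57BL/6J was called higher at 1.2% of promoters with 1 to 10 CG sites, 1.5% with 11 to 20, 0.871% with 21 to 40, 0.693% with 41 to 80, and 0.308% with 81 or more. The median log2 ratio was 0.11 in the CG-poorest class and between -0.01 and 0.02 in the others. In controls the CG-poorest class went the other way, with a median of -0.07, and the others lay between -0.08 and 0.12. Within promoters of 31 or more variants, the medians ran from 0.56 to 0.78 across the 5 classes of CG sites, all above the medians of the same classes over promoters with 0 variants, -0.07 to 0.07. The share of repeat-masked bases had a median of 28.3% in promoters called higher in C57BL/6J, 23.2% in those called higher in FVB/N and 19.1% in the rest, and its part in the calls was not tested.

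The 5 called promoters with the most variants were Mrgprb4, Smco3, Dcpp1, Dcpp2 and Mrgprb8. Mrgprb4, a receptor of sensory neurons that respond to stroking, has 106 variants and stood at 7.53 ± 1.98 in C57BL/6J, while FVB/N DEHP was listed at 0. Smco3, with 75, stood at 18 ± 7.03 and 3.53 ± 1.72, and Mrgprb8, with 67, at 7.63 ± 3.17 and 0.909 ± 1.01. Mrgprb4 was separated, whereas separation was not shown at Smco3 and Mrgprb8. In controls, C57BL/6J and FVB/N stood at 1.74 and 0.215 at Mrgprb4, and at 15 and 0.538 at Mrgprb8.

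The Mrgpr receptors were looked at as a group after these values were seen. They had 18 promoters, 2 of them called higher in C57BL/6J (Mrgprb4 and Mrgprb8, against 0.819% of all promoters) and 1 called higher in FVB/N (Mrgpra3, against 0.0756%), all on chromosome 7 between 47601173 and 48388725. Mrgprb5, which lies between them with 30 variants, was separated with C57BL/6J higher, at 4.46 ± 0.99 and 0.909 ± 0.707, and just missed the threshold (adjusted p = 0.051), while its controls stood at 0.604 and 0.646. Mrgpra1, with 36 variants, stood at 1.39 ± 1.19 and 1.62 ± 1.41, so a high number of variants did not go with a difference at each promoter.

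Promoters without a listed variant were called as well, 18 higher in C57BL/6J and 4 higher in FVB/N. Of the 18, 11 were listed at 0 in FVB/N in both treatments. The study kept only variants with a minimum read coverage in FVB/N. A count of 0 variants therefore does not show that the sequence is the same in both strains, and this was not tested. Vmn1r1, a pheromone receptor of the vomeronasal organ, stood at 8.91 ± 3.37 in C57BL/6J and was listed at 0 in FVB/N (adjusted p = 2.79e-07). Its probe on chromosome 1, from 182157899 to 182160098, holds 16 CG sites. The predicted gene Gm9833 stood at 10.3 ± 3.37 and 1.31 ± 2.02, and Cmbl, a hydrolase gene, at 16 ± 5.45 and 4.04 ± 2.32. Vmn1r1 was separated, and Gm9833 and Cmbl were not shown to be. In the FVB/N direction the 4 promoters were Alad, Speer4d, Ceacam-ps1 and Fgfr1op.

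A listing at 0 was more frequent in FVB/N. After DEHP, 88 promoters were listed at 0 in FVB/N and 34 in C57BL/6J, and 39 and 2 were listed at 0 in both treatments. With FVB/N at 0, a call among the 39 can go in the C57BL/6J direction alone, so their number called is a description. It was 23, with 11 of these at 0 variants and 8 at over 10 variants. They include the vomeronasal receptors Vmn1r1 and Vmn1r188, the odorant receptor Olfr1036, the epidermal T cell genes Skint3 and Skint6, the protease inhibitor Stfa1, Nlrp1a and its neighbour Nlrp1c-ps, and the CG-rich promoters of Actr2, of the actin-nucleating complex, and Mak16, of ribosome assembly. Actr2, with 32 variants and 85 CG sites, stood at 5.65 ± 1.78 in C57BL/6J, and Mak16, with 11 variants, at 7.03 ± 2.48. Among the 39 promoters the highest C57BL/6J level was 8.91.

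The control libraries, from other males, gave a second look at each call. Their reads were aligned onto the same C57BL/6J reference over the same probes. A strain difference in sequence or alignment would recur in them and cannot be told apart here from one in methylation. Of the 184 promoters called higher in C57BL/6J after DEHP, 175 (95.1%) had the higher mean in C57BL/6J in controls too, against 50.0% of all promoters, and 119 (64.7%) did so with an unadjusted p under 0.05 in controls, against 3.4%. The median log2 ratio of the 184 was 1.72 in DEHP, where it was chosen, and 1.20 in controls. Of the 17 called higher in FVB/N, 15 (88.2%) were higher in FVB/N in controls, against 49.9% of all promoters, and 9 (52.9%) with an unadjusted p under 0.05, against 2.46%. The opposite direction reached that p in controls at 0 of the 201 promoters (limma). Control libraries were separated in the same direction at 44 of the 184 (against 0.307% of all promoters) and at 2 of the 17 (against 0.111%). The calls recurred in a similar way with and without variants. On the same side in controls were 16 of the 18 promoters of 0 variants and 71 of the 73 of 31 or more variants. Of these, 12 and 43 had an unadjusted p under 0.05. Among the 18, 11 were listed at 0 in FVB/N in both treatments. With adjusted p under 0.05 in controls, 18 promoters were called higher in C57BL/6J (0.0801%) and 6 higher in FVB/N (0.0267%), and 18 of these 24 were called in the same direction in DEHP. The 24 and the 201 are not like counts, since a promoter's own SD had weight in controls and none in DEHP. The study's edgeR test of controls reported more promoters in each direction at a stricter p. Zfp637, Cilp, Fam166b and Trpm8 (C57BL/6J higher) and Gm7538 and Ceacam-ps1 (FVB/N higher) were among them. The spread in FVB/N controls was wider, with an SD of 0.628 of the mean (median over promoters at 5 to 10 normalized reads) against 0.351 in FVB/N DEHP.

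**Figure D4:**
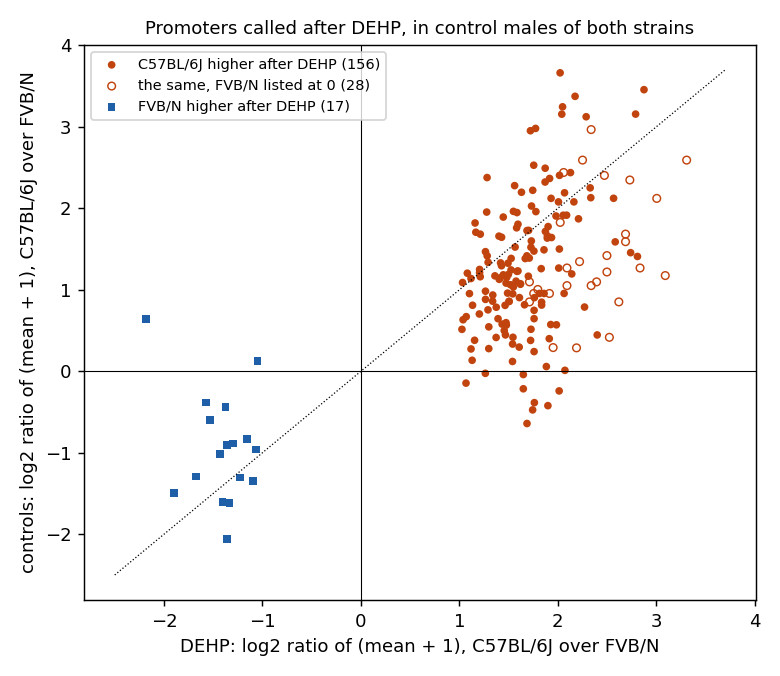
Log2 ratio of C57BL/6J over FVB/N (mean plus 1) in DEHP (x axis) and in controls (y axis) for the 201 promoters called after DEHP; open circles are listed at 0 in FVB/N DEHP and the dotted line marks equal ratios. Of the circles, 175 of 184 lie above 0 on the y axis, and of the squares, 15 of 17 lie below it, with Magoh and Tmem125 above.

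Zfp637 stood at 7.92 ± 1.48 in C57BL/6J controls and 1.29 ± 1.72 in FVB/N controls, against 5.55 and 0.909 after DEHP. AA388235 stood at 36.6 ± 10.8 and 6.89 ± 4.09, and Gm9833 at 16.2 ± 2.75 and 0.968 ± 1.4. In FVB/N controls, as after DEHP, Vmn1r1 was listed at 0, while C57BL/6J controls stood at 5.03 ± 2.21. In the other direction, 6820431F20Rik stood at 13.4 ± 3.49 and 59.1 ± 12.5 in controls, against 7.13 ± 3.37 and 19.9 ± 4.64 after DEHP. The promoters on the other side in controls were Ccdc70, Ccnf, Eme1, Fbxo33, Hcar1, Olfr1107, Olfr324, Trappc8 and Vps13c among those higher in C57BL/6J, and Magoh and Tmem125 among those higher in FVB/N.

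Tmem125, Piwil2, Fkbp1a and Smim8 are named in the study for strain-dependent responses to DEHP. There, all 4 passed a genome-wide threshold in an edgeR test on read counts. Tmem125 and Smim8 were followed up by pyrosequencing, with DEHP trends in the same direction that were not significant. The test here is another measure, on differences in reads between group means. Tmem125, which codes for a membrane protein, was called after DEHP, at 0.891 ± 1.19 in C57BL/6J and 7.57 ± 3.74 in FVB/N (adjusted p = 0.000228), while controls stood at 13.3 ± 5.77 and 8.18 ± 2.69. Piwil2, of the piRNA pathway that silences transposons in the germ line, stood at 6.54 ± 2.67 and 3.23 ± 1.51 after DEHP (adjusted p = 0.436) and at 2.68 ± 1.34 and 8.61 ± 3.12 in controls. Fkbp1a stood at 1.98 ± 0.891 and 0.202 ± 0.404 (adjusted p = 0.202), and Smim8 at 1.78 ± 0.99 in C57BL/6J with FVB/N listed at 0 (adjusted p = 0.115). On the common scale, the difference between the strain differences passed at 3 promoters (0.0133%), none of them among the 201, and had an adjusted p of 0.428 for Tmem125, 0.268 for Piwil2 and 0.263 for Fkbp1a and Smim8. On the values as deposited, without scaling, Tmem125 passed this test (adjusted p = 0.0118), while the others stood at 0.153 for Piwil2, 0.091 for Fkbp1a and 0.0997 for Smim8. With equal medians, none of these 4 passed, with adjusted p-values of 0.665 for Tmem125, 0.381 for Fkbp1a and 0.293 for Piwil2 and Smim8. Treatment and batch cannot be told apart, while both strains of a treatment were in the same batch of library preparation and sequencing. Sfi1, a centrosome gene with the highest level after DEHP in both strains, stood at 170 ± 43.1 and 98.4 ± 18 after DEHP (adjusted p = 0.492).

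Of 10 genes known to differ between inbred strains, 1 was called after DEHP, where 0.894% of all promoters were called. This was Apoa2, which codes for an apolipoprotein of high-density lipoprotein. It stood at 12.5 ± 4.46 in C57BL/6J and 4.04 ± 0.808 in FVB/N (log2 ratio 1.42, adjusted p = 0.00397), with 22 variants in its promoter, and controls stood at 12.9 ± 5.7 and 4.52 ± 3.77. The agouti coat colour gene (symbol a), with 46 variants, stood at 13.7 ± 4.56 and 7.07 ± 2.52 (adjusted p = 0.193). Tyr, the tyrosinase gene whose mutation makes FVB/N albino, stood at 0.792 ± 0.693 and 0.707 ± 1.01, and Pde6b, whose mutation causes retinal degeneration in FVB/N, at 9.31 ± 4.16 and 9.49 ± 2.32. For both, the strains differed by less than the SD of either strain. Hc (complement), Nnt (mitochondrial transhydrogenase), Glo1 (glyoxalase), Fcgr3 (an antibody receptor), Ahr (the aryl hydrocarbon receptor) and Cdh23 (cadherin of hair cells) had adjusted p-values between 0.77 and 0.997.

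Gene families were compared by the share of their promoters that was called. Of 29 families, 14 had a called promoter. Class I histocompatibility and related H2 genes had 4 of 39 promoters higher in C57BL/6J (10.3%, against 0.819% of all) and 1 higher in FVB/N, with a median log2 ratio of 0.43 and a median of 18 variants. H2-T3 stood at 9.21 ± 4.65 and 1.31 ± 0.808, and H2-D1 went the other way, at 8.12 ± 2.48 and 18.1 ± 6.36. Skint genes had 2 of 10, both listed at 0 in FVB/N, and serpins 3 of 63, all in a single run on chromosome 12. Nlrp genes, sensors of innate immunity, had 2 of 20. Speer genes had 1 in each direction out of 11, Speer3 at 8.22 ± 3.57 and 1.51 ± 1.51 and Speer4d the other way.

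The large receptor families were near the share of all promoters. Odorant receptors had 13 of 1074 higher in C57BL/6J (1.21%) and vomeronasal receptors 3 of 238 (1.26%), with 0 higher in FVB/N in both. Zinc finger genes had 4 of 335 (1.19%), namely Zfp964, Zfp872, Zfp365 and Zfp637. MicroRNA genes had 4 of 994 (0.402%) in the C57BL/6J direction, with Mir6388 at 5.94 ± 2.58 and 0.707 ± 0.707, and Mir6385 in the FVB/N direction at 11.3 ± 3.66 and 25.2 ± 10.4. Predicted genes with a Gm name had 18 of 844 (2.13%) and 2. No promoter was called in 106 keratin, 98 cytochrome P450, 58 protocadherin, 49 histone and 39 Hox promoters, nor among the 126 promoters marked as imprinted. Over all promoters 0.894% were called, so sets of these sizes are too small to tell 0 calls from that share. Of 383 promoters marked for spermatogenesis, 1 was called, that of Spata31, at 4.65 ± 1.68 and 0.707 ± 1.01, and Crisp2, a sperm protein gene outside that mark and named after its values were seen, stood at 5.35 ± 1.88 and 0.909 ± 0.909.

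Called promoters lay together in places. Runs of at least 3 promoters called in the same direction, each within 500 kb of the next, numbered 8 with 30 promoters, all with C57BL/6J higher. Overlapping probes counted once, they held 28 separate regions, and 7 of the 8 runs had at least 3. The longest, on chromosome 1 from 173201358 to 174330717, held 7 of 30 probed promoters, namely Olfr218, Pydc3, AI607873, Ifi204, Olfr432, Olfr231 and Mptx1, in a region of odorant receptors and interferon-inducible genes. Its 30 probes had a median of 33 variants and a median log2 ratio of 0.65 in DEHP and 0.60 in controls. Of its 23 promoters that were not called, 15 had a ratio above 0. Ifi202b and Ifi205, which share a probe in the middle of the run, had a ratio of -0.21 with 12 variants.

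**Figure D5:**
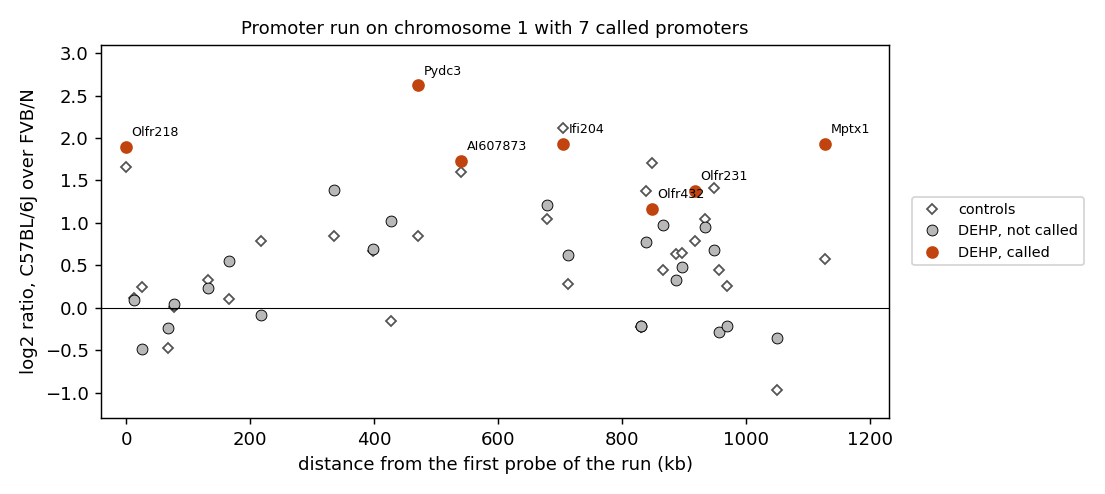
Log2 ratio of C57BL/6J over FVB/N for the 30 probed promoters of the run on chromosome 1, by distance in kb from the first probe, in DEHP (circles, filled red where called) and controls (diamonds). Called promoters are interspersed with others near or below 0, and Pydc3 is listed at 0 in FVB/N in both treatments.

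The other runs were shorter. On chromosome 17, from 36111227 to 36192151, H2-T23, C920025E04Rik and H2-T3 were 3 of 4 probed promoters with a median log2 ratio of 2.08 (the probes of H2-T23 and C920025E04Rik overlap). A run at 23878876 to 24253409 of the same chromosome held Dcpp1, Dcpp2, Dcpp3 and Ccnf. On chromosome 12, from 103737990 to 104236441, the antiprotease genes Serpina1b, Serpina1e and Serpina3h were called, with Serpina1e at 9.71 ± 4.56 and 1.31 ± 1.31. Gene symbols are those deposited, and exon annotation placed another gene under some probes. The probe listed as Serpina3h overlapped Serpina3g, that of H2-T23 overlapped BC023719 and H2-T-ps, and that of Ifi204 overlapped Ifi211. On chromosome 2 the odorant receptors Olfr1030, Olfr1036, Olfr1061 and Olfr228 were 4 of 32 probed promoters, in a region with a median of 3 variants. The remaining runs held Olfr324, Olfr322 and Fam183b on chromosome 11, Gm15133 and the antiviral genes Trim34b and Trim30d on chromosome 7, and Vwa9, Cilp and Rasl12 on chromosome 9. When separated libraries were required in place of the adjusted p, 0 runs remained.

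The promoters next to the called ones were also described. The nearest probes that did not overlap a promoter called higher in C57BL/6J, and were not called themselves, numbered 336, and 230 of them (68.5%) had a ratio above 0, with a median log2 ratio of 0.22 and a median of 11 variants. Over all promoters 51.7% were above 0. Over promoters with 6 to 10 variants the share was 57.6%, with a median log2 ratio of 0.07. With 11 to 20 variants (median 14) it was 66.9%, with a median log2 ratio of 0.19. The neighbours were not matched to other promoters by number of variants. The 31 such neighbours of promoters called higher in FVB/N had a median of -0.13, with 13 (41.9%) above 0. By chromosome, the share called higher in C57BL/6J was highest on chromosome 12 (13 of 772, 1.68%), chromosome 17 (17 of 1106, 1.54%) and chromosome 4 (19 of 1342, 1.42%). On the X chromosome it was 1 of 753 (0.133%), and on the Y chromosome 0 of 5. The promoter on the X chromosome, G530011O06Rik, stood at 31.1 ± 17.7 and 8.38 ± 3.43.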

How the data were processed

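Sperm DNA of 20 males was captured with a methyl-binding domain and sequenced, with 5 libraries per strain and treatment. The authors aligned reads onto mm10 with Bowtie (0.12.7 per the submitters' processing notes), counted read pairs per probe, and used edgeR for normalization. The signal values used are the group means that the authors deposited with 1 decimal; the SDs and the numbers of CG sites and variants (other values) were deposited beside them. Deposited fold changes, p-values and FDR of the authors' own comparisons were not used.

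Means and SDs were scaled to a common sum. Differences of means were tested with limma 3.58.1 (R 4.3.3), with variances moderated towards a trend on level (8 residual degrees of freedom) and Benjamini-Hochberg adjustment over 22480 promoters. In DEHP the prior degrees of freedom were infinite, so the trend set every variance and a promoter's own SD had no weight; in controls they were 16.9. The difference between strain differences used all 4 groups (16 residual degrees of freedom). The procedure was tested on simulated data. Log2 ratios took a pseudocount of 1 and understate changes at low levels.

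Promoters were named by rank of the difference over the larger SD (10 per direction with at least 5 normalized reads in the higher strain), by up to 4 called members per family, by the most and by 0 variants (5 each), by the longest runs, and from lists of strain loci, imprint markers and genes named in the study. Members and lists were chosen with earlier results of these data known. Sequence and repeat-masked shares came from GRCm38.p6, whose number of CG sites equalled the deposited number in 93.2% of probes. Depth per library is unknown. Alternatives were as deposited values, equal medians, a test on the log2 scale, separated libraries, minimum levels of 1 and 3, a pseudocount of 0.1, an absolute log2 ratio above 1, autosomes alone, and other run distances. Summaries and plots were made in Python 3.11.15.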

Additional observations from a re-analysis of the deposited data

Results flagged for a closer look

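The strain difference in normalized reads differed between DEHP and controls at 3 promoters (0.0133% of promoters), by the test of the difference between the strain differences. That test compares differences in reads and not ratios, so a promoter whose level changes in both strains can pass it. None of the 3 promoters was called between the strains after DEHP. At 3110070M22Rik on chromosome 13 (adjusted p = 6.2e-08), FVB/N and C57BL/6J stood at 46.7 and 23.7 normalized reads after DEHP and at 664 and 157 in controls. At Mir466d on chromosome 2 (adjusted p = 0.00119), they stood at 41.5 and 26.7 after DEHP and at 214 and 44.3 in controls. At Vmn2r29 on chromosome 7 (adjusted p = 0.00487), they stood at 6.06 and 6.73 after DEHP and at 39.6 and 8.45 in controls. In each case FVB/N controls had the highest mean of the 4 groups, and the C57BL/6J controls were above both DEHP groups. At 3110070M22Rik and Mir466d, FVB/N was the higher strain in both treatments. Treatment and the batch of library preparation and sequencing cannot be told apart.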

How the results depend on the processing

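Against 184 promoters higher in C57BL/6J and 17 higher in FVB/N, the test on the log2 scale gave 286 and 21, separated libraries gave 66 and 8, equal medians 140 and 21, as deposited values 205 and 16, and a minimum level of 3 gave 129 and 17. The 201 promoters of the main test were all among those of the log2 scale test. The median log2 ratio at 31 or more variants was 0.68, became 0.85 with a pseudocount of 0.1 and 0.56 among promoters with 41 to 80 CG sites, and lay between 0.61 and 0.78 in the other settings tried. Promoters with a tested difference between the strain differences numbered 3, 5 with equal medians and 16 as deposited (Tmem125 among these 16), the controls having a median log2 ratio of 0.54 before scaling. The 8 runs with 30 promoters became 5 with 17 at 200 kb and 12 with 48 at 1 Mb, and 0 with 0 when libraries had to be separated. Among single promoters, the ratio of Hc was -0.05 instead of 0.03 with equal medians, Cilp passed no longer with equal medians, and Smim8 passed with the log2 scale test; the cause was not tested. No paired analysis was possible because the deposited columns are group means. Leaving out single libraries was not run for the same reason. Unknown depth limits what a value near 0 can show.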
